A study of Mus musculus with 26 samples.

Results

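The effect of losing Fxr and Shp was set against the effect of a cholic acid diet, gene by gene, in mouse liver. The quantity studied is the difference of effects, which is the log2 change from wild type to Fxr-/- Shp-/- minus the log2 change from chow to cholic acid in floxed mice. It uses 12 of the 26 libraries of a series on drug metabolism in cholestasis, chosen by their sample titles, and compares genes that moved the same way in both experiments with genes that moved in opposite ways. A positive difference means a higher value of the knockout effect than of the cholic acid effect.

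Messenger RNA was sequenced from whole liver of C57BL/6J mice, with 3 libraries in each of 4 groups. The knockout experiment holds wild type and Fxr-/- Shp-/- mice, both 12 weeks old and fed ad libitum. The cholic acid experiment holds mice with the genotype fl/fl Fxr fl/fl Shp on chow or on the cholic acid diet, all 10 to 12 weeks old and fasted for 8 to 10 h. The labels name no Cre in the floxed mice, which therefore serve here as mice that carry both genes, and they give neither the dose nor the length of the diet. Age, feeding and floxed alleles differ between the experiments but not within them, so each effect was taken against its own controls. The part of the receptors in a difference of effects cannot be told apart from that of the feeding, age and alleles that differ between the experiments.

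Fxr (gene Nr1h4) is the nuclear receptor for bile acids, and Shp (gene Nr0b2) is a repressor without a DNA-binding domain that Fxr induces. When bile acids rise in a hepatocyte, Fxr and Shp lower the enzymes that make bile acids and raise the pumps that export them. Mice without both proteins accumulate bile acids with this feedback absent, and a cholic acid diet loads the liver with bile acids while the feedback is present.

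Reads counted to genes numbered 16614444 to 19725936 per library in wild type, 19655218 to 22606249 in the knockout, 13949059 to 15932893 in floxed mice on chow and 18561979 to 19496566 in those fed cholic acid. The third chow library of the floxed mice stood apart, with a correlation of log2 levels of 0.961 and 0.964 with the other 2, against 0.990 between those 2. Hepatocyte markers summed to 121800 to 149400 CPM (counts scaled to a common library size) in wild type and to 87500 to 111700 CPM in the knockout. The knockout libraries were thus all below wild type. The sums were 131900 to 152400 CPM on chow and 121600 to 153300 CPM on cholic acid, which overlap. The first principal component (51.9% of the variance) placed all 6 libraries of the knockout experiment on one side and all 6 of the cholic acid experiment on the other, so levels are compared across experiments only as a description. The labels do not say how the replicates of a group relate beyond their numbers, so p-values measure the spread between these samples.

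The targeted genes were examined first. Nr0b2 stood at 14.4, 26.8 and 13.2 CPM in the wild-type libraries and at 0.576, 1.12 and 1.60 CPM in the knockout libraries. Chow libraries held 14.9, 17.6 and 19.1 CPM and cholic acid libraries 93.0, 44.7 and 62.5 CPM. The knockout libraries were all below wild type and the cholic acid libraries all above chow, so this gene moved in opposite ways. Its knockout effect was -4.03 ± 0.39 (SE), its cholic acid effect 1.96 ± 0.27 and the difference -5.98 ± 0.52 (edgeR adjusted p = 2.67e-05). Nr1h4 counts were lower by -1.27 ± 0.13 in the knockout (adjusted p = 0.000149) and by -1.01 ± 0.19 on cholic acid (adjusted p = 0.0219), a difference of -0.25 ± 0.23 (adjusted p = 0.519). Nr1h4 still held 53.6 to 62.9 CPM in the knockout libraries, against 113 to 153 CPM in wild type, and the labels do not say which part of the gene is deleted. The cholic acid call of Nr1h4 was lost in 3 of the 6 fits that left out 1 library.

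More genes moved together than apart. Of 13935 genes tested for the difference, 1939 (13.9%) passed an adjusted p under 0.05, with 1000 (7.18%) higher and 939 (6.74%) lower in the knockout effect than in the cholic acid effect. The knockout effect alone was called for 40.4% of 13473 genes (21% raised, 19.4% lowered), and the cholic acid effect for 4.77% of 12577 genes (2.27% raised, 2.5% lowered). Among the 12313 genes tested in both, 114 rose in both and 144 fell in both, while 40 rose in the knockout and fell on cholic acid and 44 fell in the knockout and rose on cholic acid. Across all 12313 genes the 2 effects had a Pearson correlation of 0.34 and a Spearman correlation of 0.25, and 57.9% shared a sign. For the 566 of them called on cholic acid these values were 0.51 and 66.3% (Pearson and shared sign). Genes are not independent replicates, so no p is given for these values.

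Seen from the diet, 43.3% of the genes that rose on cholic acid also rose in the knockout, 16.7% fell there and 39.9% were not called there. Of the genes that fell on cholic acid, 47.5% fell in the knockout, 13.2% rose and 39.3% were not called. Most called differences were not reversals. Of the 1939, 646 fell in the knockout and 601 rose there with no call on cholic acid, and a further 104 rose in the knockout but were below the count filter of the cholic acid experiment. Another 229 were called in neither effect alone, and the 84 genes of the opposite classes made up a small share. All 84 passed the difference test, which follows in large part from how they were defined. Among genes that moved the same way, 20 of the 114 raised (17.5%) and 38 of the 144 lowered (26.4%) still differed in size. Of those 20, 17 rose more on cholic acid and 3 more in the knockout, and the 38 were divided at 19 and 19.

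**Figure D1:**
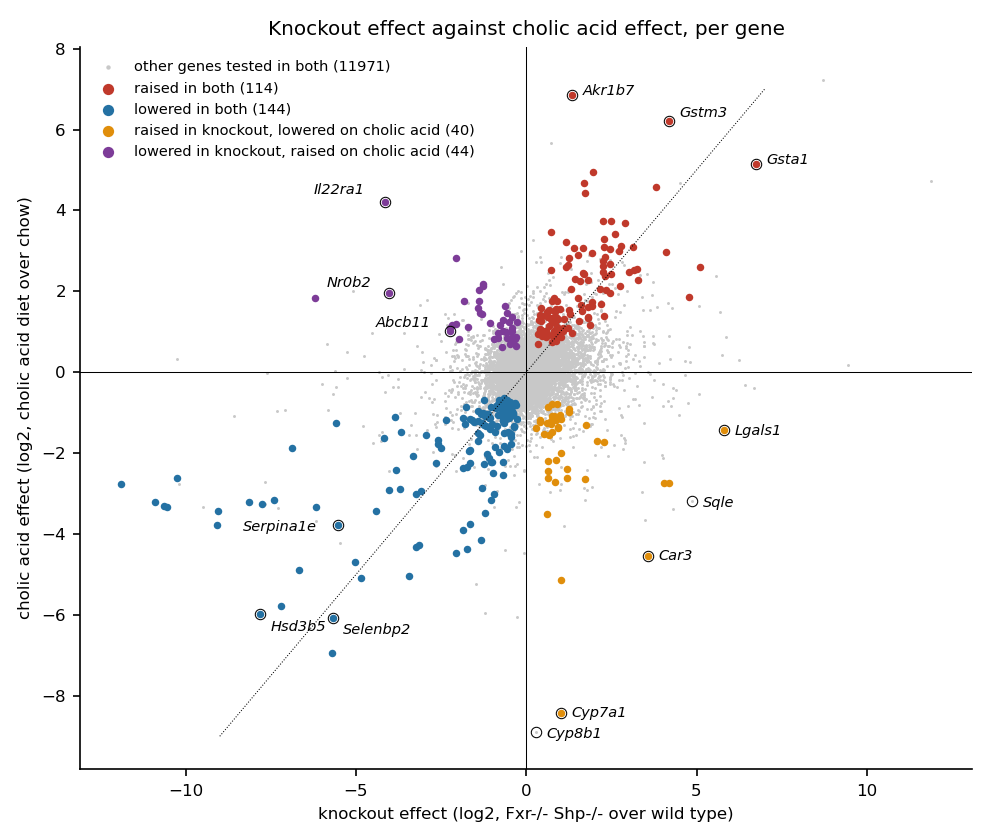
Each point is a gene tested in both experiments, with the knockout effect (log2) on the horizontal axis and the cholic acid effect (log2) on the vertical axis, and the dotted line marks equal effects. The 114 genes raised in both and the 144 lowered in both lie in the upper right and lower left, and the 40 and 44 genes of the opposite classes lie in the other corners, with Cyp7a1, Car3, Il22ra1 and Nr0b2 far from the line.

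The sizes of the classes depended on the cholic acid libraries more than on the knockout libraries. Without the third chow library the classes held 295 raised in both, 265 lowered in both, 83 raised in the knockout and lowered on cholic acid and 91 in the reverse class. That fit kept 84 of the 84 opposite genes and 255 of the 258 genes moved the same way. Leaving out any other single library of the cholic acid experiment gave 31 to 48 opposite genes (31, without the second chow library) and 91 to 142 genes moved the same way (91, without the third cholic acid library). Leaving out single libraries of the knockout experiment gave 66 to 108 and 224 to 269. With the replicate number as a block in the cholic acid experiment there were 80 opposite genes, 59 of them shared, and 226 genes moved the same way, 188 of them shared.

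Among the genes of bile acid synthesis, Cyp7a1 and Cyp8b1 had the largest differences. Cyp7a1, the rate-limiting enzyme of the classic pathway, stood at 302, 229 and 348 CPM in wild type and at 661, 643 and 479 CPM in the knockout. In floxed mice the level was 113, 164 and 744 CPM on chow, and on cholic acid it was 1.29, 0.940 and 0.732 CPM. The knockout libraries were all above wild type, and the cholic acid libraries were all far below even the lowest chow library. Its knockout effect was 1.02 ± 0.17 (adjusted p = 0.00204), its cholic acid effect -8.42 ± 0.89 (adjusted p = 0.00316) and the difference 9.45 ± 0.89 (adjusted p = 4.81e-05), the largest among the genes of the 2 opposite classes. Cyp8b1, the sterol 12-alpha-hydroxylase that sets the share of cholic acid, was at 946, 782 and 1027 CPM in wild type and 1126, 1242 and 1017 CPM in the knockout, which overlap. Chow libraries held 673 to 1245 CPM of Cyp8b1 and cholic acid libraries 1.66 to 2.16 CPM. Its difference of 9.2 ± 0.36 (adjusted p = 2.18e-08) came with a knockout effect of 0.29 ± 0.13 that was not called (adjusted p = 0.10).

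Cyp7b1, the oxysterol 7-alpha-hydroxylase of the alternative pathway, moved the same way in both experiments instead. It stood at 208 to 288 CPM in wild type against 15.9 to 20.99 CPM in the knockout, and at 414 to 746 CPM on chow against 50.9 to 88.8 CPM on cholic acid. Both pairs of groups were fully apart, and the effects of -3.72 ± 0.16 and -2.89 ± 0.31 gave a difference of -0.82 ± 0.35 (adjusted p = 0.144, and 0.0361 with the replicate block in the cholic acid experiment). Cyp39a1, which hydroxylates 24-hydroxycholesterol, fell in the knockout by 1.90 on the log2 scale, and its cholic acid effect of 1.29 ± 0.38 was not called (adjusted p = 0.0902). Its difference was -3.19 ± 0.46 (adjusted p = 0.000944). Over the 18 tested genes of synthesis and conjugation, 3 differences were higher and 1 lower, against 7.18% and 6.74% of all genes. In the knockout 3 of the 18 rose and 8 fell, against 21% and 19.4% of all genes. On cholic acid 0 rose and 6 fell, against 2.27% and 2.5% of all genes. The third gene with a higher difference was Slc27a5, which activates bile acids for conjugation, at 0.70 ± 0.19, a call lost in 8 of the 12 fits without 1 library and with the block in both experiments (adjusted p = 0.0692). The median difference of the list was 0.25, against 0.03 over all genes tested, and became 0.08 without chow library 1 or 3.

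Of the transport genes, 2 fell in the knockout and rose on cholic acid, 3 rose in both and 1 fell in both. The 2 are the canalicular pumps Abcb11 and Abcc2. Abcb11, the canalicular bile salt export pump, stood at 368, 377 and 442 CPM in wild type and at 94.6, 104 and 55.0 CPM in the knockout. The values were 574, 514 and 337 CPM in chow libraries, and in cholic acid libraries 1006, 959 and 906 CPM. The knockout libraries were all below wild type and the cholic acid libraries all above chow. The knockout effect was -2.23 ± 0.21, the cholic acid effect 1.01 ± 0.22 (adjusted p = 0.0418) and the difference -3.24 ± 0.34 (adjusted p = 9.89e-05). The cholic acid call of Abcb11 was lost in 5 of the 6 fits without 1 library and with the replicate block (adjusted p = 0.0504), and the call of the difference was kept in all 12. The same held for Abcc2, the canalicular pump for conjugated organic anions, with effects of -0.56 ± 0.14 and 0.84 ± 0.16 and a difference of -1.39 ± 0.20 (adjusted p = 0.000957), and an adjusted p of 0.071 for its cholic acid effect with the block.

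The promoter of Abcb11 is shown because this pump is a known direct target of Fxr and moved in opposite ways. The window is the 250 bases before the start of the gene, chr2:69342617-69342866 on the minus strand of GRCm38.p6 (RefSeq), written 5′ to 3′ along the gene. Capitals mark the nuclear receptor motif AGGTCA, read here from the opposite strand as TGACCT, whose first base lies 56 bases before the start.
Abcb11: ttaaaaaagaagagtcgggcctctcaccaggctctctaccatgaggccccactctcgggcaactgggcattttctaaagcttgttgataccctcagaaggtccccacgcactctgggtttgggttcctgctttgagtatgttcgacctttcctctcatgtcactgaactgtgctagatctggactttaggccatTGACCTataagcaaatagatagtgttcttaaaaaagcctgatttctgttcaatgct
The motif AGGTCA was searched on both strands of RefSeq windows from 250 bases before to 50 bases after the start, which were matched for 10187 of the 13935 genes. It was found in 15.5% of all these windows, in 11 of 35 genes lowered in the knockout and raised on cholic acid (31.4%) and in 31 of 104 genes lowered in both (29.8%). It was found in 16 of 91 genes raised in both (17.6%) and in 3 of 26 genes raised in the knockout and lowered on cholic acid (11.5%). The 11 are Abcb11, Abcc2, Ak4, Coro7, Cyp3a25, Nfx1, Slc4a2, Slc6a13, Stat5b, Tmem141 and Ugt2b35. The inverted repeat GGTCANTGACC, which contains a shortened form of the same motif in each arm, was found in 4 of the 10187 windows (0.0393%) and in 0 genes of the 4 classes. The search allowed no mismatch, and the letters ggccatTGACC in the Abcb11 window above differ from this repeat in the first arm only. A match or its absence describes these letters only.

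Sterol pumps differed in a different manner. Abcg5, which with Abcg8 exports cholesterol into bile, stood at 91.7, 82.0 and 72.7 CPM in wild type and 56.4, 56.9 and 75 CPM in the knockout. On chow it stood at 60.9, 65.4 and 71.6 CPM, and on cholic acid at 315, 236 and 168 CPM. The knockout libraries overlapped wild type, and the cholic acid libraries were all above chow. The cholic acid effect was 1.86 ± 0.24 (adjusted p = 0.00808), the knockout effect -0.39 ± 0.14 was not called (adjusted p = 0.0518), and the difference was -2.25 ± 0.29 (adjusted p = 0.000469). Abcg8 had effects of 0.05 ± 0.12 in the knockout and 1.82 ± 0.25 on cholic acid, and a difference of -1.77 ± 0.29 (adjusted p = 0.00174).

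Slc51b, the beta subunit of the basolateral bile acid exporter, was counted 2, 2 and 5 times in the wild-type libraries and 0 times in all knockout libraries. It was counted 0, 0 and 7 times on chow and 60, 154 and 117 times on cholic acid. It was therefore near the limit of 3 counts in every group except cholic acid, where it rose by 5.01 ± 0.90 (adjusted p = 0.0202). Its counts in the knockout experiment were under the filter for testing, and its fitted difference is a model estimate that is given no size here. The call of Slc51b on cholic acid was lost in 4 of the 6 fits without 1 library.

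Other carriers moved the same way in both experiments but by unequal amounts. Abcb1a, a multidrug efflux pump, rose by 1.96 ± 0.27 in the knockout and by 4.94 ± 0.44 on cholic acid, a difference of -2.97 ± 0.54 (adjusted p = 0.00355). Abcc4, a basolateral pump that exports bile acids to blood, rose more in the knockout, by 4.79 ± 0.34 against 1.87 ± 0.36 on cholic acid, a difference of 2.91 ± 0.52 (adjusted p = 0.00334). The cholic acid call of Abcc4 was lost in 4 of 6 fits without 1 library and with the block (adjusted p = 0.0565). Slco1a4, an organic anion uptake carrier, rose by 1.22 ± 0.12 and 2.65 ± 0.35, and its difference of -1.43 ± 0.38 (adjusted p = 0.0267) was lost in 6 of the 12 fits without 1 library. Slco1a1, a male-biased uptake carrier, fell by 10.54 in the knockout, where it was counted 10, 1 and 1 times, and fell by 3.33 on cholic acid, both on the log2 scale.

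Of the 19 tested transport genes, 1 difference was higher and 10 were lower, against 7.18% and 6.74% of all genes. The count of 10 ranged from 7 to 10 when single libraries were left out. In the knockout, 4 of 18 rose and 7 fell, against 21% and 19.4% of all genes. On cholic acid 8 of 19 rose and 1 fell, against 2.27% and 2.5% of all genes. The 8 became 4 without chow library 1 or 2 or cholic acid library 2, 5 without cholic acid library 1 or 3, and 5 with the replicate block. The median difference was -0.87, with medians of -0.26 for the knockout effect and 0.49 for the cholic acid effect.

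The wider list of Fxr and Shp partners and targets held 5 higher and 9 lower differences among 29 tested genes. Of all genes 7.18% were higher and 6.74% lower. The median difference of the list was -0.57. The 9 became 5, and the median -0.41, without the first knockout library, and the median became -0.21 without the second cholic acid library. Akr1b7, an aldo-keto reductase, rose in both, by 1.34 ± 0.25 in the knockout and 6.86 ± 0.77 on cholic acid, a difference of -5.52 ± 0.85 (adjusted p = 0.00131). Mafg, a small Maf repressor of bile acid synthesis, fell in the knockout (-0.94 ± 0.13) and rose on cholic acid (0.83 ± 0.19, adjusted p = 0.0481, and 0.0663 with the block), a difference of -1.76 ± 0.23 (adjusted p = 0.000543). Hnf4a, a hepatocyte transcription factor, fell in the knockout by 0.78 on the log2 scale with a cholic acid effect of 0.21 ± 0.20, and its difference was -0.98 ± 0.24 (adjusted p = 0.0175). Apoc3, an inhibitor of lipoprotein lipase, fell on cholic acid (-1.16 ± 0.20) with a knockout effect of 0.34 ± 0.13 that was not called (adjusted p = 0.0606), and its difference was 1.5 ± 0.24 (adjusted p = 0.0014). Pparg, a nuclear receptor for fat storage, rose in the knockout by 2.03 ± 0.12 and had a cholic acid effect of 0.03 ± 0.27, a difference of 2.00 ± 0.30 (adjusted p = 0.00105). Vldlr, a lipoprotein receptor, rose in the knockout by 4.29 ± 0.20, and its difference was 2.70 ± 0.55 (adjusted p = 0.00636). Dio1, which activates thyroid hormone, fell in both but more on cholic acid (-4.37 ± 0.53 against -1.74 ± 0.36).

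**Figure D2:**
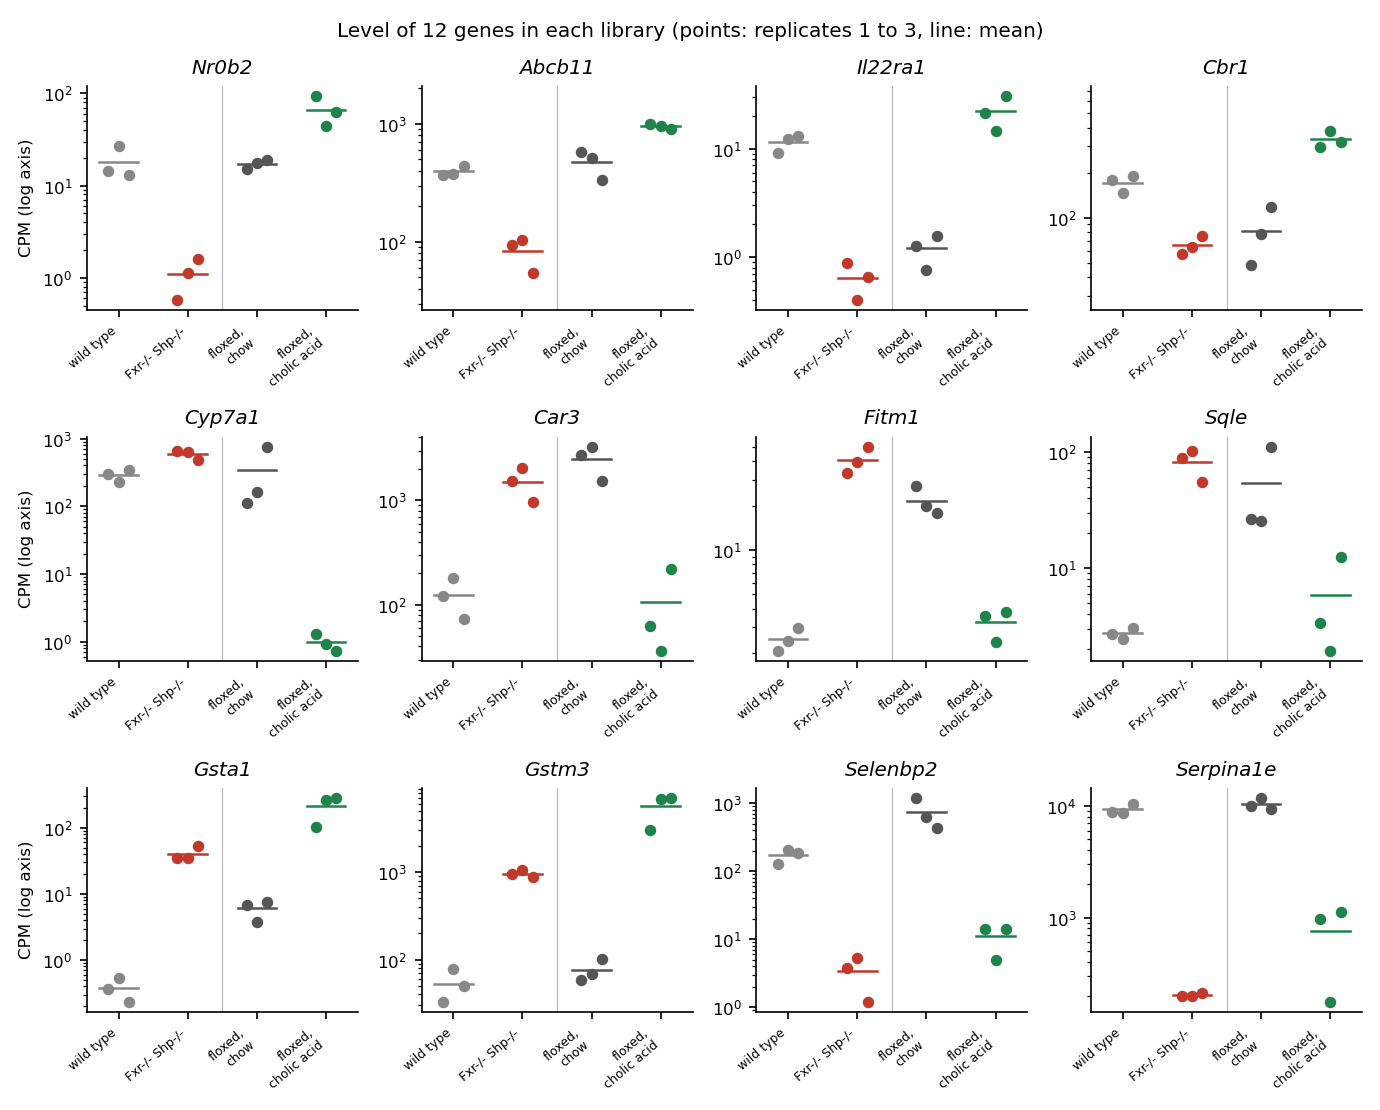
CPM on log axes for 12 genes in each of the 12 libraries, with replicates 1 to 3 as points from left to right and group means as lines, and a grey line between the experiments. Nr0b2, Abcb11, Il22ra1 and Cbr1 are low in the knockout and high on cholic acid, Cyp7a1, Car3, Fitm1 and Sqle show the reverse, and the 4 genes of the bottom panels move the same way in both.

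Among the genes lowered in the knockout and raised on cholic acid, Il22ra1 had the largest difference. It encodes a receptor subunit for interleukin-22. It stood at 9.18, 12.4 and 13.2 CPM in wild type and at 0.886, 0.403 and 0.656 CPM in the knockout. Chow libraries held 1.28, 0.768 and 1.56 CPM and cholic acid libraries 21.2, 14.7 and 30.4 CPM. The 2 effects were nearly equal in size and opposite in sign, at -4.15 ± 0.27 and 4.20 ± 0.37, and the chow libraries lay below every wild-type library. The difference was -8.34 ± 0.49 (adjusted p = 7.13e-07) and no call of Il22ra1 was lost when any single library was left out. The gene lies on chromosome 4, 2.17 Mb from Nr0b2 (GRCm38), and what that position contributes to its knockout effect was not tested.

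Cbr1, a carbonyl reductase, stood at 179, 147 and 189 CPM in wild type and at 57.6, 63.3 and 75.5 CPM in the knockout. In floxed mice the level was 48.1, 77.7 and 118 CPM on chow, and on cholic acid it was 296, 380 and 323 CPM. Groups did not overlap within either experiment, and the difference was -3.43 ± 0.37 (adjusted p = 0.000119). Hal, which starts histidine breakdown, fell by 2.17 in the knockout and rose by 1.17 ± 0.23 on cholic acid, a difference of -3.33 ± 0.27 (adjusted p = 1.54e-05). Ak4, a mitochondrial adenylate kinase, had effects of -2.25 ± 0.15 and 1.10 ± 0.22, the second with an adjusted p of 0.0612 in the blocked fit. The cholic acid calls of both Hal and Ak4 were lost in 4 of 6 fits without 1 library, and that of Cbr1 without the second chow library. Adamts7, a secreted metalloprotease, had a difference of -4.87 ± 0.45, and Shank2, a scaffold protein, of -3.39 ± 0.35, and neither lost a call in any of these fits. The 44 genes of this class had a median knockout effect of -0.80, a median cholic acid effect of 1.14 and differences from 0.94 to 8.34 in size.

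The 40 genes raised in the knockout and lowered on cholic acid had medians of 0.89 and -1.46 and differences from 1.52 to 9.45 in size. After Cyp7a1 the largest belonged to Car3, the abundant carbonic anhydrase of muscle, fat and liver. It stood at 122, 182 and 72.6 CPM in wild type and at 1521, 2029 and 965 CPM in the knockout. The values were 2720, 3228 and 1549 CPM in chow libraries, and in cholic acid libraries 62.9, 36.3 and 219 CPM. All knockout libraries were above wild type and all cholic acid libraries below chow, and all chow libraries were above every wild-type library. The effects were 3.58 ± 0.38 and -4.55 ± 0.70, and the difference was 8.14 ± 0.89 (adjusted p = 0.000124).

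Fitm1, a protein of lipid droplet formation, showed the same arrangement. It stood at 2.06 to 2.97 CPM in wild type, 33.6 to 49.95 CPM in the knockout, 17.7 to 27.0 CPM on chow and 2.38 to 3.80 CPM on cholic acid. Its difference was 6.78 ± 0.34 (adjusted p = 1.99e-07), with effects of 4.05 ± 0.20 and -2.73 ± 0.26. Lgals1, a galactose-binding lectin, rose by 5.80 ± 0.13 in the knockout and fell by 1.44 on cholic acid, a call lost in 4 of 6 fits without 1 library. Raet1d, a ligand of the natural killer cell receptor NKG2D, had effects of 4.18 ± 0.11 and -2.74 ± 0.30 and a difference of 6.92 ± 0.27. Slc17a8, a vesicular glutamate transporter, had a knockout effect of 0.61 ± 0.15 against -3.50 ± 0.26 on cholic acid, and lies 0.0404 Mb from Nr1h4 on chromosome 10. Within 10 Mb of Nr0b2 or Nr1h4 lay 3 of these 40 genes (7.5%), 2 of 43 genes of the reverse class (4.65%), 70 of 1938 genes with a called difference (3.61%) and 434 of all 13903 genes with a position (3.12%).

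The sterol genes were the list with the largest share of called differences. Of 27 tested genes of cholesterol synthesis and uptake, 25 differences were higher and 1 was lower, where 7.18% of all genes were higher. In the knockout 23 rose and 1 fell, against 21% and 19.4% of all genes. On cholic acid 1 rose and 3 fell, against 2.27% and 2.5% of all genes. The medians were 2.19, -1.33 and 3.16 for the knockout effect, the cholic acid effect and the difference. These enzymes are the classic targets of SREBP2, the transcription factor that answers low cellular sterol. The 3 that fell on cholic acid were Tm7sf2, Hsd17b7 and Ebp, and Scarb1, the HDL receptor, ran against the rest.

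Sqle, the squalene epoxidase, stood at 2.73, 2.47 and 3.03 CPM in wild type and at 88.0, 101 and 54.6 CPM in the knockout. On chow it stood at 26.4, 25.5 and 110 CPM, and on cholic acid at 3.39, 1.94 and 12.3 CPM. Both pairs of groups were apart, the third chow library was above every knockout library, and the third cholic acid library was the highest of its group. The knockout effect was 4.88 ± 0.25, the cholic acid effect -3.18 ± 0.81 was not called (adjusted p = 0.0633, and 0.0037 with the block), and the difference was 8.07 ± 0.99 (adjusted p = 0.000328).

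Hmgcs1, the cytosolic HMG-CoA synthase, stood at 71.2, 79.1 and 75.2 CPM in wild type and at 520.1, 615 and 232 CPM in the knockout. Chow libraries held 143, 130.2 and 597 CPM and cholic acid libraries 83.9, 71.5 and 95.4 CPM. The groups did not overlap, and the third chow library again stood far above its group. The difference was 4.39 ± 0.73 (adjusted p = 0.00199), with a cholic acid effect of -1.79 ± 0.55 that was not called (adjusted p = 0.105). Mvd, which makes isopentenyl diphosphate, differed by 6.38 ± 0.92 (adjusted p = 0.000899), and its cholic acid effect passed the threshold with the block alone (adjusted p = 0.0449, against 0.0547). Sc5d, a late enzyme of the pathway, differed by 2.22 ± 0.43 (adjusted p = 0.00518). Scarb1 had effects of -0.41 and 1.01 and a difference of -1.42 (adjusted p = 0.000893), and Insig2, a brake on SREBP processing, a difference of -0.47 that was not called (adjusted p = 0.621).

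The third chow library stood apart in these genes. Each gene's log2 level was set relative to the mean of the controls of the same experiment, and the median of these values over the 27 genes was 1.62 to 2.32 in the knockout libraries, -0.46, -0.66 and 1.16 in the chow libraries and -1.25, -1.55 and -0.59 in the cholic acid libraries. Without the third chow library, 24 differences were higher and 1 lower, the median difference was 2.43, the median cholic acid effect was -0.68, and 7 genes fell on cholic acid. Without cholic acid library 2 or 3 the count was 1, and with the replicate block 15 fell. Across all 12 omissions 22 to 25 differences were higher and 1 lower, and the median was 2.43 to 3.68.

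**Figure D3:**
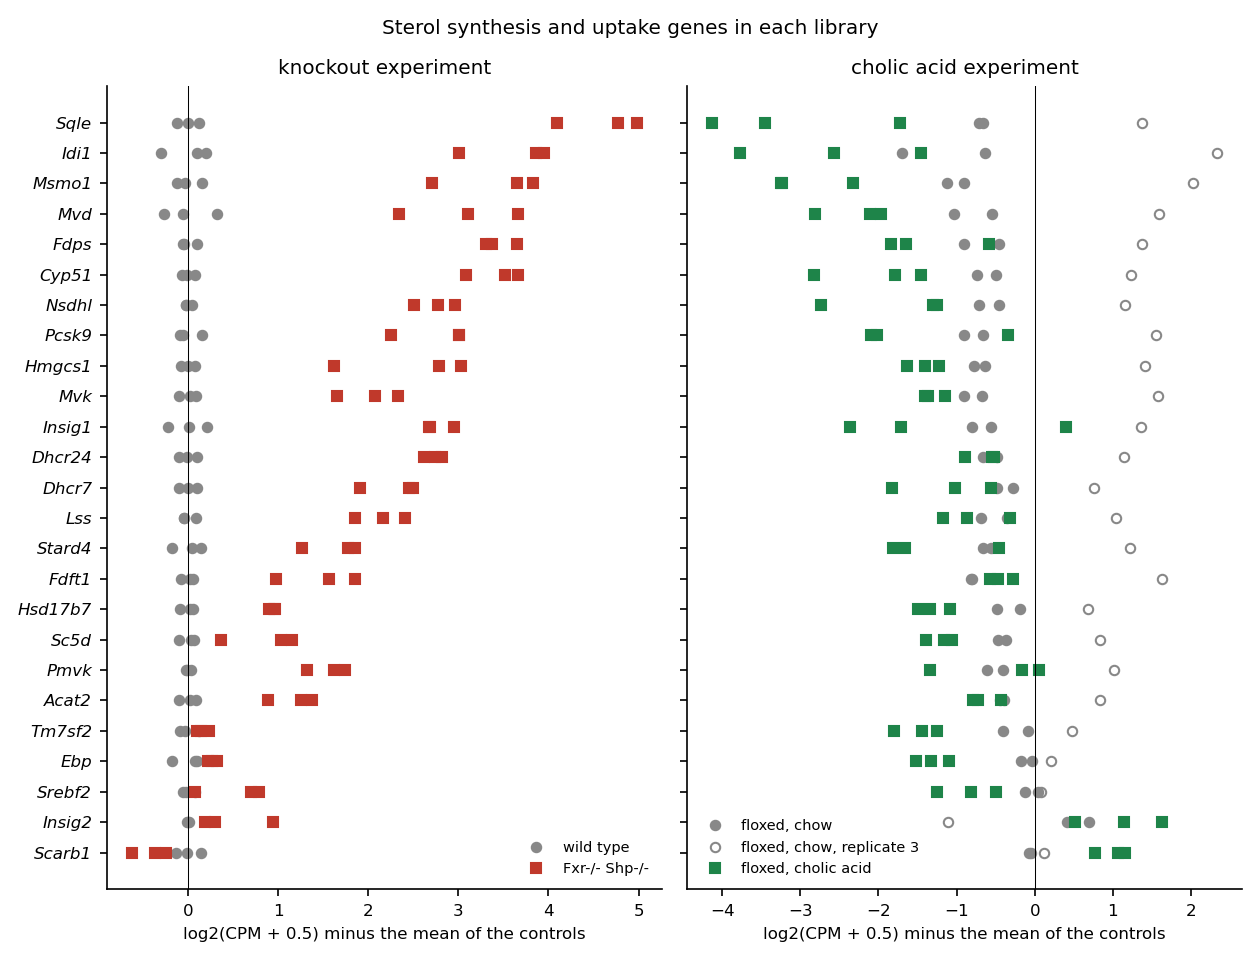
Log2(CPM + 0.5) of 25 of the 27 sterol genes in each library, minus the mean of the controls of the same experiment, with wild type and Fxr-/- Shp-/- on the left and floxed mice on chow or cholic acid on the right. Most knockout libraries lie to the right of wild type and most cholic acid libraries to the left of zero, and the open circles of the third chow library lie right of the other chow libraries in most genes but left of them for Insig2.

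The promoters of Hmgcs1, Mvd and Sc5d are shown as examples of the sterol genes that moved together. Each window is the 250 bases before the gene's start in GRCm38.p6 (RefSeq), at chr13:119690101-119690350 on the plus strand for Hmgcs1, chr8:122443423-122443672 on the minus strand for Mvd and chr9:42264301-42264550 on the minus strand for Sc5d. Capitals mark the CCAAT motif, which reads ATTGG from the opposite strand. Its first bases lie 237, 176 and 45 bases before the start in Hmgcs1, 60 and 27 in Mvd and 24 in Sc5d.
Hmgcs1: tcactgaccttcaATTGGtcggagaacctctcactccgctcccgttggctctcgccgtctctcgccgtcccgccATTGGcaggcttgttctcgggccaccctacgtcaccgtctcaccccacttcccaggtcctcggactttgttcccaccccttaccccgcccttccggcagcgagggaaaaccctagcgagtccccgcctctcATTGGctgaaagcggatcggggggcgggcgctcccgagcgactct
Mvd: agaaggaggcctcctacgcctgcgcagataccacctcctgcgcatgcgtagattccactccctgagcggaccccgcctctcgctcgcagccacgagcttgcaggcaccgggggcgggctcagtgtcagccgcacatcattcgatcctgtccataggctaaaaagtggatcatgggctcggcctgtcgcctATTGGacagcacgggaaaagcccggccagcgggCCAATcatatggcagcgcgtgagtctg
Sc5d: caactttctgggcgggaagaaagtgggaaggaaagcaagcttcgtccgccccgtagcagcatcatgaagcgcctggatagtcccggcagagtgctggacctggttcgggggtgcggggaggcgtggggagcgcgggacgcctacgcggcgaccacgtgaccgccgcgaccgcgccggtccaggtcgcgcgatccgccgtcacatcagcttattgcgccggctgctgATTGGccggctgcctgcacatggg
CCAAT was found on either strand in 17 of the 18 sterol genes with a window (94.4%) and in 43% of all 10187 genes. In the cell cycle list it was found in 43 of 63 (68.3%). The sterol response element TCACNCCAC, a binding motif of SREBP proteins, was found in 1 of the 18 sterol genes (5.56%) and in 1.45% of the 10187. That gene is Hmgcs1, whose window above holds the element in lower case as tcaccccac. Both motifs were searched on both strands of the same windows, and a match or its absence describes these letters only.

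Fatty acid genes also had more higher than lower differences, where 7.18% of all genes were higher and 6.74% lower. Of 25 genes of fatty acid synthesis, 11 differences were higher and 2 lower, with a median of 0.80, which became 0.53 without the second cholic acid library. Of 38 genes of fatty acid oxidation and fasting, 10 were higher and 1 was lower, with a median of 0.63, which became 0.29 without the third chow library. Without the third knockout library 3 of them were lower. Cd36, a fatty acid transporter, stood at 8.92 to 13.9 CPM in wild type and 266 to 338 CPM in the knockout. In floxed mice the level was 30.9 to 48.2 CPM on chow and 35.1 to 43.3 CPM on cholic acid. It was apart in the knockout experiment and overlapped in the other, and the difference was 4.72 ± 0.29 (adjusted p = 8.14e-07). Scd1, the stearoyl-CoA desaturase, differed by 3.04 ± 0.53 and Fasn, the fatty acid synthase, by 2.94 ± 0.41, with cholic acid effects of 0.71 ± 0.43 and -0.08 ± 0.35 that were not called. Of 24 genes of gluconeogenesis and amino acid breakdown, 1 difference was higher and 5 lower (25% called, against 13.9% of all genes). The median was -0.54, which became -0.85 without the third knockout library. Pck1, the gatekeeper of gluconeogenesis, fell in the knockout by 1.94 with a cholic acid effect of 0.04 ± 0.21, a difference of -1.97 ± 0.26 (adjusted p = 0.000585). Feeding differed between the experiments but not within them, and its part in these differences was not tested.

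Enzymes of detoxification were found among the genes that rose in both and among those that fell in both. Of the conjugating enzymes 57 were tested in the knockout and 49 on cholic acid, and 10 rose in both and 7 fell in both. Of the cytochromes 49 and 44 were tested, and 4 rose in both and 5 fell in both. Over all 12313 genes tested in both experiments 114 rose in both and 144 fell in both. The enzyme counts raised in both rest on 12 conjugating enzymes and 8 cytochromes that rose on cholic acid. These became 5 and 4 without the second cholic acid library and 7 and 3 without the second chow library. The counts lowered in both rest on 9 conjugating enzymes and 9 cytochromes that fell on cholic acid. Those became 4 and 1 without the first cholic acid library and 11 and 13 without the third chow library. Gsta1, an alpha class glutathione transferase, stood at 0.361, 0.541 and 0.233 CPM in wild type and at 35.0, 34.6 and 52.7 CPM in the knockout. The values were 6.84, 3.70 and 7.67 CPM in chow libraries, and in cholic acid libraries 104, 260 and 280 CPM. It was higher in every treated library of both experiments, with effects of 6.74 ± 0.30 and 5.14 ± 0.47 and a difference of 1.59 ± 0.65 (adjusted p = 0.127). Gstm3, a mu class member, rose by 4.18 ± 0.29 and 6.22 ± 0.43, and its difference of -2.04 ± 0.49 was called (adjusted p = 0.0153). Cyp2a5, a coumarin hydroxylase, rose by 1.43 ± 0.18 and 2.31 ± 0.48, with a difference of -0.88 ± 0.55 (adjusted p = 0.322). Glutathione transferases and cytochromes of a family are near-identical in sequence, so single members are uncertain where reads were not unique.

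Nrf2 is the sensor of oxidative and electrophilic stress. Among its targets 5 rose in both experiments, and 1 fell in the knockout and rose on cholic acid. Of 30 tested, 4 differences were higher and 7 lower, against 7.18% and 6.74% of all genes. The 4 became 2 without wild-type library 1 or 2 and 7 with the block in the cholic acid experiment. The median difference was -0.03, with medians of 0.65 and 0.74 for the knockout and cholic acid effects. In the knockout 18 of 29 rose and 2 fell, against 21% and 19.4% of all genes. On cholic acid 8 of 28 rose, against 2.27% of all genes. The 8 became 4, 2 and 14 without chow library 1, 2 and 3, 5 without cholic acid library 2 or 3, and 5 with the block. The 5 that rose in both included Nqo1, a quinone reductase, by 0.73 ± 0.16 and 2.52 ± 0.25, a difference of -1.79 ± 0.31 (adjusted p = 0.00257). Hmox1, heme oxygenase 1, rose in the knockout by 2.96 ± 0.32 with a cholic acid effect of 0.73 ± 0.38 that was not called, a difference of 2.23 ± 0.56 (adjusted p = 0.0188).

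Male-biased genes accounted for 22 of the 144 genes that fell in both. Of 33 tested, 32 fell in the knockout, against 19.4% of all genes. On cholic acid 22 of 32 fell, against 2.5% of all genes, and those 22 fell in both. The medians were -5.69 for the knockout effect and -2.83 for the cholic acid effect. The 22 that fell on cholic acid became 14 without chow library 2 and 12 without cholic acid library 3, and lay from 15 to 23 without the other single libraries. Selenbp2, a selenium-binding protein, stood at 127, 206 and 187 CPM in wild type and at 3.81, 5.28 and 1.19 CPM in the knockout. On chow it stood at 1186, 617 and 427 CPM, and on cholic acid at 13.99, 4.92 and 14.3 CPM. The groups were far apart in both experiments, and effects of -5.68 ± 0.42 and -6.07 ± 0.58 gave a difference of 0.40 ± 0.71 (adjusted p = 0.759). Hsd3b5, a male-specific steroid reductase, had effects of -7.82 ± 0.92 and -5.98 ± 0.58, with 1, 0 and 1 counts in the knockout libraries. Serpina1e, an alpha-1 antitrypsin paralog, stood at 8595 to 10440 CPM in wild type, 197 to 213 CPM in the knockout, 9443 to 11710 CPM on chow and 176 to 1117 CPM on cholic acid.

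Within that list 16 of 33 differences were lower and 1 was higher, against 6.74% and 7.18% of all genes, and the median difference was -2.47. Elovl3, a fatty acid elongase, fell by 9.09 in the knockout and by 3.77 on cholic acid, a difference of -5.33 ± 1.22 (adjusted p = 0.0125), and its cholic acid call was lost in 5 of 6 fits without 1 library and with the block (adjusted p = 0.0991). The call of this difference was lost with the block in both experiments (adjusted p = 0.0545). Cyp2d9, a testosterone 16-alpha-hydroxylase, fell by 5.6 and by 1.25, a difference of -4.34 ± 0.36 (adjusted p = 1.72e-05). Major urinary protein genes, the pheromone carriers, summed to 28892 to 30757 CPM in wild type, 45.7 to 390 CPM in the knockout, 23633 to 27215 CPM on chow and 4219 to 8799 CPM on cholic acid. These genes are near-identical copies. Reads without a unique place, from any gene, made up 43.2% to 44.1% of reads in wild type and 25.5% to 26.9% in the knockout. The share was 23.8% to 25.1% in floxed mice on chow and 16.6% to 17.6% in those given cholic acid. The wild-type libraries had the highest shares of the whole series, and what this contributes to the knockout effect was not tested.

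Of 37 female-biased genes tested in the knockout, 34 rose and 1 fell, and they include genes such as Sult3a1 that passed the count filter only through the knockout libraries. Of the 21 that passed it in the cholic acid experiment, 2 rose and 1 fell, where 4.77% of all genes were called. The other genes of the list could not be tested there, so no count or median of its differences is given. Cyp2a22, a cytochrome, was counted 4, 2 and 3 times in wild type and 1930, 2257 and 4411 times in the knockout, with a cholic acid effect of 0.18 ± 0.62. Sult3a1, a sulfotransferase, was counted 0 times in every wild-type library and 272, 248 and 147 times in the knockout, at least 53.8-fold higher against a floor of 3 counts per library. Cd1d2, a polymorphic pseudogene in GENCODE M21 (GRCm38), was at 0 counts in wild type and 637 to 817 in the knockout (at least 175-fold higher). It was at 0 or 1 count in the cholic acid experiment. Cd1d2 is a near copy of Cd1d1. Obp2a, an odorant-binding protein, was counted 83 to 169 times in wild type and 0 times in the knockout, at least 49-fold lower. Rps3a1, a ribosomal protein gene, fell by 7.62 in the knockout with a cholic acid effect of -0.01 ± 0.25. Rps3a1 has near-identical processed copies to which reads can be assigned, so its value is uncertain. Rps3a1 and Cd1d2 lie close together on chromosome 3, at chr3:86137940-86142702 and chr3:86986551-86989780 (GRCm38). What that position contributes to their knockout effects was not tested.

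Of the cell cycle genes, 12 rose in both experiments. Of 65 tested in the knockout 36 rose and 7 fell, against 21% and 19.4% of all genes. Of 77 tested on cholic acid 15 rose and 1 fell, against 2.27% and 2.5% of all genes. Among 77 tested differences 1 was higher and 6 were lower, so 9.09% of the list was called against 13.9% of all genes, and the median was -0.32. Hmmr, a spindle protein, rose by 2.90 ± 0.68 and 3.69 ± 0.59, and Cdc20, an activator of the anaphase-promoting complex, by 2.78 ± 0.49 and 3.13 ± 0.54. Levels in the knockout were low: Hmmr was counted 17, 26 and 18 times there, and 1, 0 and 5 times in wild type. Without the third chow library 44 of 78 genes rose on cholic acid and 2 fell, 2 differences were higher and 12 lower and the median difference was -0.98, while 6 and 2 rose without chow library 1 and 2, and 3 without cholic acid library 2 or 3. Ccnf, cyclin F, fell in the knockout by 2.43 with a cholic acid effect of 0.07 ± 0.34, a difference of -2.49 ± 0.45 (adjusted p = 0.00328). Esco2, a cohesin acetyltransferase, rose on cholic acid by 2.19 ± 0.32 with a knockout effect of -0.68 ± 0.45, a difference of -2.87 ± 0.58 (adjusted p = 0.00653).

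Inflammation genes, fetal genes and stellate cell markers had more higher than lower differences, where 7.18% of all genes were higher and 6.74% lower. Of 35 acute phase and inflammation genes, 10 differences were higher and 0 lower, with a median of 1.12, which became 10, 2 and 0.19 without the third chow library. The 10 became 6 without the second wild-type library, and the median 0.73 without the first cholic acid library and 0.56 with the block in the cholic acid experiment. Ccl2, a monocyte chemokine, was counted 1, 4 and 2 times in wild type, 152, 127 and 45 times in the knockout and 1 to 11 times in the cholic acid experiment. Of 21 fetal and tumour-associated genes 7 differences were higher and 1 was lower, against 7.18% and 6.74% of all genes. On cholic acid 18 genes of this list passed the count filter, so genes that passed only through the knockout experiment enter the 21. Ly6d, a surface protein, was counted 6, 1 and 8 times in wild type and 748, 968 and 322 times in the knockout, a difference of 7.10 ± 1.22 (adjusted p = 0.0025). Of 24 stellate cell and matrix markers, 19 rose and 1 fell in the knockout, against 21% and 19.4% of all genes. On cholic acid 1 of 22 rose, against 2.27% of all genes, and 6 differences were higher and 1 lower. The 6 ranged from 4 to 10 when single libraries were left out, with 10 without chow library 1 or cholic acid library 3. Their summed level was 314 to 496 CPM in wild type, 739 to 835 CPM in the knockout, 226 to 382 CPM on chow and 319 to 542 CPM on cholic acid. Macrophage and leukocyte markers summed to 351 to 714 CPM, 578 to 1112 CPM, 244 to 603 CPM and 482 to 723 CPM in the same order, and bile duct markers to 48.6 to 64.5, 86.7 to 165, 69.9 to 73.4 and 78.0 to 94.4 CPM. Of the 24 macrophage and leukocyte markers 3 differences were higher and 1 lower (16.7%, against 13.9% of all genes), with Trem2, a receptor of lipid-associated macrophages, at 4.99 ± 1.12 (adjusted p = 0.0112). The 3 became 1 without chow library 3 and 6 without chow library 1, and the median of 0.38 became -0.21 without chow library 3. Of the 12 bile duct markers 2 were higher and 0 lower (16.7%, against 13.9% of all genes, and 1 higher without wild-type library 1 or 3). On cholic acid 9 bile duct markers passed the count filter, so the same limit holds. Spp1, osteopontin, differed by 1.52 ± 0.38 (adjusted p = 0.0187). In whole liver, more cells of a type and more RNA per cell cannot be told apart, and the part of these cells in the other differences was not tested.

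**Figure D4:**
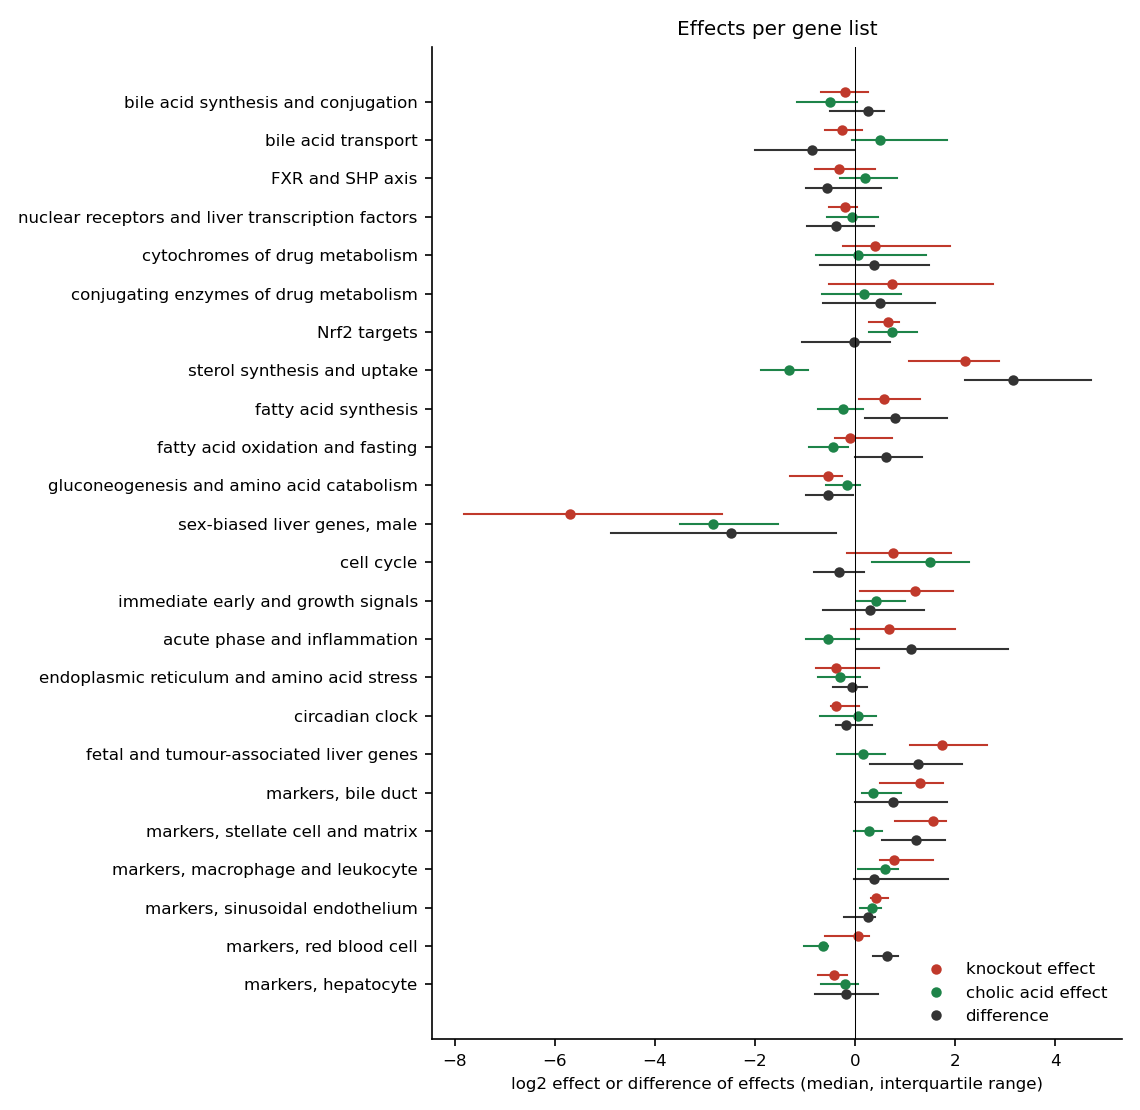
Median (point) and interquartile range (line) of the knockout effect, the cholic acid effect and their difference, on the log2 scale, over the tested genes of 24 lists (the female-biased list is left out). The difference lies farthest from zero in the sterol list (3.16) and the male-biased list (-2.47). The medians of the 2 effects lie on opposite sides of zero in the sterol list. They also do so in the lists of bile acid transport, Fxr and Shp, fatty acid synthesis, acute phase, circadian clock and red blood cell markers.

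The 4 classes were then followed into libraries that did not define them. One set compared livers of C3H/HeN mice aged 8 to 10 weeks and fed ad libitum, 48 h after partial hepatectomy or at 0 h after sham surgery (3 libraries each). The other compared hepatocytes of C57BL/6J mice fasted for 10 h and aged 16 weeks on a 60% fat diet or chow (2 libraries each). After hepatectomy 56 of 110 tested genes of the class raised in both rose (50.9%) and 9 fell, against 16.4% and 14.3% of all genes, and 71 of 143 genes lowered in both fell (49.7%) and 9 rose. With high fat diet 32 of 110 rose and 13 fell in the first class, against 12.9% and 11.1% of all genes, and 69 of 144 fell (47.9%) and 8 rose in the second.

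In the opposite classes some genes rose and others fell there. Of all genes 16.4% rose and 14.3% fell after hepatectomy, and 12.9% rose and 11.1% fell with high fat diet. Of the 40 genes raised in the knockout and lowered on cholic acid, 6 rose (15%) and 15 fell (37.5%) after hepatectomy. With high fat diet 10 of them rose (25%) and 6 fell (15%). Of the 44 genes of the reverse class, 7 rose (15.9%) and 9 fell (20.5%) after hepatectomy. With high fat diet 5 of these rose (11.4%) and 13 fell (29.5%). The shares raised after hepatectomy were thus close to that of all genes in both classes. When the classes were taken with the replicate block in the cholic acid experiment, 9 of 50 genes of the first opposite class rose and 19 fell with high fat diet, so the majority there turned. It also turned without cholic acid library 2, where 5 of 21 rose and 6 fell. In the reverse class 11.8% to 18.2% fell with high fat diet without chow library 1 or 2 or a cholic acid library, when the class held 7 to 17 genes. When they were taken without the third chow library, 125 of 289 genes raised in both rose after hepatectomy (43.3%) and 107 of 264 lowered in both fell (40.5%). The class raised in both was smaller without the other libraries of that experiment, and 9 of 28 rose after hepatectomy without chow library 2 (32.1%), 12 of 34 without cholic acid library 3 (35.3%) and 19 of 52 without chow library 1 (36.5%). With high fat diet the share that rose was 29.1% with all libraries and 48.3%, 48.6% and 35.8% in the same order, and 44.1% without cholic acid library 2. These shares describe the classes, whose genes share pathways, and carry no test.

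**Figure D5:**
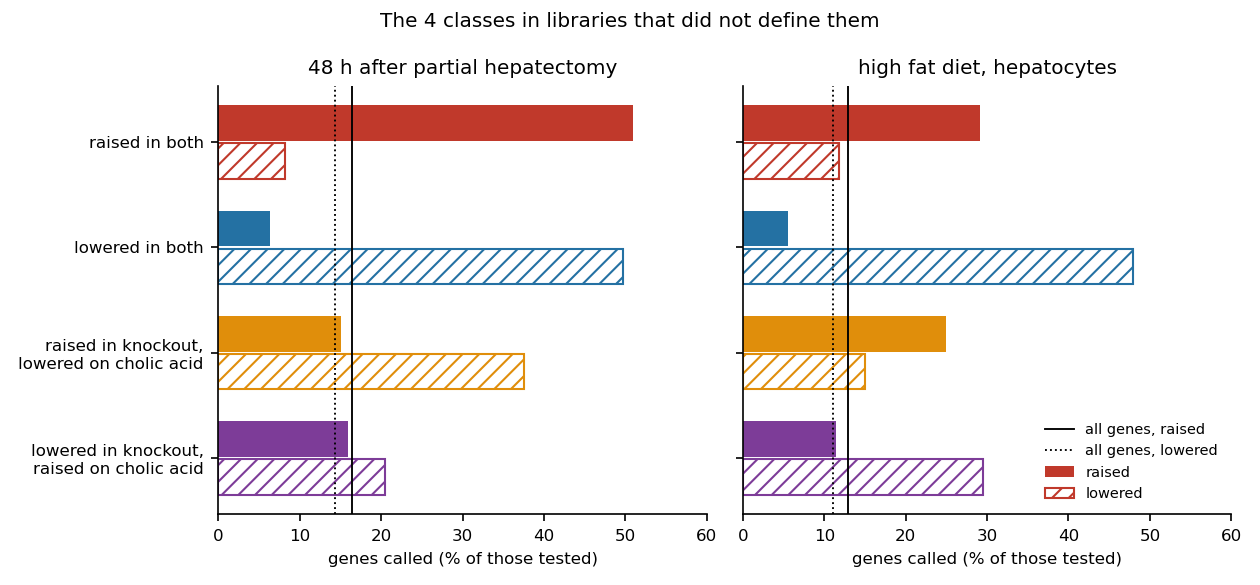
Share of the tested genes of each class called raised (filled bars) or lowered (hatched bars) 48 h after partial hepatectomy and with high fat diet, with vertical lines for all genes raised (solid) or lowered (dotted). The class lowered in both reaches 49.7% and 47.9% lowered, and the class raised in both reaches 50.9% and 29.1% raised.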

How the data were processed

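RNA was extracted from frozen liver or hepatocytes and libraries were made with a stranded mRNA kit, per the labels' protocols. Per the submitters' processing notes, bcl2fastq 2.17.1.14, Trimmomatic, STAR 2.4.2a, Picard 1.119 and HTSeq were used with the builds GRCm38 and mm10. The annotation and strand setting are not given in the sources used here, so overlapping and antisense genes are uncertain. The deposited table gives read counts per gene, as whole numbers, for 47643 genes of all 26 libraries, with 5 summary lines that were left out of library sizes and tests. Reads without a unique place were 16.6% to 44.1%, reads in no gene 3.19% to 4.81% and reads in more than 1 gene 1.02% to 2.85% of all reads in the 12 libraries. Symbols came from a mouse name table (47224 identifiers matched).

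The difference was fitted over the 12 libraries and each effect over its own 6, with edgeR 4.0.16 (limma 3.58.1, R 4.3.3): filterByExpr (count of 10, total of 15), TMM, and the quasi-likelihood F test with Benjamini-Hochberg adjustment at 0.05. CPM values are TMM-scaled over the 12 libraries, and SE is the absolute log2 value divided by the square root of F. A floor is 3 counts per library and covers counting error only. The procedure was tested on simulated data. Alternatives were DESeq2 (1.42.0), limma voom, other filters and scalings, thinning, leaving out each library, and the replicate block. The block in the cholic acid experiment alone was chosen after seeing the data.

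Same-numbered chow and cholic acid libraries had correlations of deviations from group means of 0.133, 0.155 and 0.103, and those of unlike number -0.106 to -0.051. The titles' numbers were therefore used as a block for that experiment, as an alternative. In the knockout experiment same-numbered libraries had -0.176, -0.038 and -0.019. Pairs of unlike number reached 0.104 there and 0.106 in the hepatectomy experiment, so such values do not establish a pairing. The main tests use no block. For genes described in the report, blocked values are printed where they change a call of a printed effect or difference.

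The genes and the 25 lists were chosen with earlier results of these data known. Genes were named by rule: the targeted genes, the 8 of each same-direction class with the largest smaller effect, the 8 of each opposite class with the largest difference, and the 6 of each direction called in 1 effect only. For these the mean log2 CPM had to reach 1, with groups that did not overlap and no placeholder symbol. Called members of the bile acid and Fxr lists, and up to 4 of each kind from other lists, were added. Insig2, Scarb1, Tm7sf2, Hsd17b7, Ebp, Hmgcs1 and Sc5d were named after their values were seen, as were the genes listed for their motif. Positions came from GENCODE M21 and promoter windows from RefSeq (GRCm38.p6). The TCPOBOP experiment was not used here, and a few genes are not reported here.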

Additional observations from a re-analysis of the deposited data

Results flagged for a closer look

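Reads that fell in more than 1 gene, which the authors' counting assigned to none, differed between groups in both experiments, and no comparison above uses them. They were 1.91% ± 0.07 of reads (SD, n = 3) in the knockout libraries, against 1.09% ± 0.064 in wild type. On cholic acid they were 2.57% ± 0.24 (SD, n = 3), against 2.02% ± 0.32 on chow. What this share contributes to the difference of effects was not tested.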

How the results depend on the processing

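The count of 1939 called differences stayed within 1.5 times under every alternative run, its lower part excepted as given here, and no called value of a named gene changed sign. With DESeq2's Wald test, 1445 genes were called on cholic acid, and the classes held 267 raised in both, 288 lowered in both, 117 raised in the knockout and lowered on cholic acid, and 95 in the reverse class. With effects taken from the 12-library fit these were 2127, 318, 287, 122 and 98. Without a filter they were 955, 225, 211, 86 and 69. With a minimum absolute log2 value of 1, 554 differences were lower, 2078 genes were called in the knockout, and the classes held 68, 80, 14 and 18. With the replicate block in both experiments 1536 differences were called, 1420 of them also without it, and the blocked classes held 80 opposite genes, 56 of them shared. When single libraries were left out, called differences ranged from 1325 to 2350, higher ones from 681 to 1177 and lower ones from 597 (without the second wild-type library; 610 without the second knockout library) to 1269. Genes called in the knockout ranged from 3969 to 6024 and on cholic acid from 189 to 1345 (298, 194 and 1345 without chow library 1, 2 and 3, and 271, 189 and 196 without cholic acid library 1, 2 and 3). The classes ranged from 30 to 295 raised in both, 55 to 265 lowered in both, 20 to 83 raised in the knockout and lowered on cholic acid, and 7 to 91 in the reverse class. Hepatectomy calls ranged from 2554 to 4217 (2554 and 2575 without sham library 2 and 3) and high fat diet calls from 1141 to 2644 (1141 and 1793 without high fat library 1 and 2), where the lone library left in a group is assumed to vary like the others. The cause of these shifts was not tested. Of 116 named genes with a called difference, 81 kept the call in every fit without 1 library and 12 lost it in most. Of 82 called on cholic acid, 30 kept it in every such fit and 17 lost it with the block. Depth limits genes such as Slc51b, Cd1d2 and Hmmr, which lie at or near 3 counts in a group.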
